A study of Mus musculus with 38 samples.

Results

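The IM2 population of mouse lung interstitial macrophages was set against the midpoint of the IM1 and IM3 populations, gene by gene, to find which transcripts departed from the level halfway between its neighbours and which followed it. The comparison used 29 of the 38 sequencing runs of the series, summed to 9 of its 12 libraries: every library of IM1, IM2 and IM3 in replicates A, B and C. All 3 populations came from the lungs of naive C57Bl/6 mice aged 8 to 10 weeks, and were sorted, after digestion of perfused lung and enrichment for MerTK, as live cells with CD64 and CD11b. Cells with the lymphocyte markers B220, CD3 or NK1.1, the granulocyte markers Ly6G or Siglec F, CD24 or CD43 were left out. IM1 was gated as CD206 high and MHC class II low, IM2 as high for both, and IM3 as CD206 low and MHC class II high. The labels also describe IM1 and IM2 as CD11c low and IM3 as CD11c positive. IM2 therefore shared its CD206 gate with IM1 and its MHC class II gate with IM3, and the transcripts of these gate markers are no independent readout. Full-length cDNA was made from 2 ng of RNA from about 50000 sorted cells and sequenced on an Ion Proton instrument. No label says that replicate letters are separate animals, so each p-value rests on the spread among these libraries, which may be technical.

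Interstitial macrophages lie in the lung tissue outside the airspaces, in contrast to alveolar macrophages. CD206, the mannose receptor encoded by Mrc1, binds mannose-bearing glycoproteins and is often found with scavenger receptors such as CD163 and with LYVE1 on macrophages near blood vessels. MHC class II molecules present peptides from ingested protein to CD4+ T cells. Their α and β chains, their invariant chain Cd74 and the peptide exchange protein H2-DM are switched on together by the transactivator Ciita. CD11c, encoded by Itgax, is an integrin chain shared by many dendritic cells and some macrophages.

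Levels are given as CPM, a gene's count scaled to its library's total, after TMM scaling, a correction for library composition. The departure from the midpoint is log2 IM2 minus the mean of log2 IM1 and log2 IM3. A value above 0 means a higher level in IM2. Genes were tested with edgeR's quasi-likelihood test, adjusted by the Benjamini-Hochberg method over 13662 genes, and called at an adjusted p under 0.05. A blend of equal amounts of IM1 and IM3 RNA would give the arithmetic mean of the 2 levels, which lies above the log midpoint wherever they differ. The departure from this even mixture was tested in the same fit. Position places IM2 on a scale from 0, the IM3 level, to 1, the IM1 level.

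The libraries held 11818981 to 15652508 reads assigned to genes, and 3 counts corresponded to 0.192 to 0.254 CPM. IM1 replicate A was the shallowest and had the most multimapping reads, 14.8% against 10.7% to 12.3% in the other 8 libraries. The macrophage label held in all 9 libraries: the 12 pan-macrophage genes summed to 34270 to 49420 CPM before TMM scaling, and none was called against the midpoint. Marker sums of 22 other cell types, the pan-macrophage sum and the mitochondrial and ribosomal protein sums are given as values, because a permutation of 3 libraries against 6 cannot go below p = 0.0119 (exact, two-sided), which adjusts over the 25 sums to 0.298 for a single list. All 3 IM2 libraries lay above the other 6 in 2 of the 25 sums, those of conventional type 2 dendritic cell and alveolar type 2 cell markers. The alveolar type 2 sum was 304.6 to 340.7 CPM in IM2, 207 to 262.1 in IM1 and 274.8 to 292.5 in IM3. It was made up mostly of Lyz1 and Abca3. Of its genes, only Lyz1 and Sftpb were higher in every IM2 library than in the other 6. Sftpc read 13.96, 9.602 and 12.28 CPM in IM1, 34.74, 9.09 and 9.328 in IM2 and 12.85, 5.459 and 4.099 in IM3. The populations thus overlapped for Sftpc, and its highest value came from IM2 replicate A. The part of alveolar type 2 cells in the results was not tested. One T cell gene was erratic: Trac read 4067 CPM in IM1 replicate A, 1127 in IM2 replicate B and 645 in IM3 replicate B and at most 0.939 in the others before scaling, while Cd3e was at most 0.0722 in all 9.

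Departures from the midpoint were mostly upward. IM2 lay above it for 220 genes (1.61% of those tested) and below it for 30 (0.22%), with a median departure over all genes of -0.001. Without adjustment, 877 and 525 genes had a p under 0.05. The upward set consisted mainly of IM1-high genes whose IM2 level was not resolved from IM1: 194 of the 220 were higher in IM1 than in IM3, and 197 differed from IM3 but not detectably from IM1. Only 15 of the 220 were higher in IM3, and 11 did not differ between IM1 and IM3. Among the 30 genes below the midpoint, 18 were higher in IM3, none was higher in IM1 and 28 differed from IM3 only. So in both directions most called genes stood apart from IM3 and were not resolved from IM1. The median departure was 1.17 for the genes above and -0.73 for those below.

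Against an even mixture the balance turned. The mixture lies above the midpoint wherever IM1 and IM3 differ, so the direction of this turn was fixed by arithmetic. IM2 lay above the arithmetic mean for 37 genes (0.271%) and below it for 85 (0.622%). All 37 were also above the midpoint, and 183 genes above the midpoint were not called against the mixture. Of the 85 below the mixture, 58 were not called against the midpoint and 74 were higher in IM3. IM2 was called above both neighbours for 6 genes (0.0439%) and below both for 1 (0.00732%). Of the 122 mixture calls, 110 ended when some library was left out, and 12 did not. The mixture counts ran from 3 above and 10 below without IM2 replicate A to 126 above and 218 below without IM1 replicate A. For comparison, 1470 genes (10.8%) were higher in IM1 than in IM3 and 1373 (10.0%) higher in IM3. IM2 differed from IM1 at 149 genes (1.09%) and from IM3 at 1386 (10.1%). The counts depend on single libraries. The count above the midpoint was 364 without IM1 replicate A, 362 without IM1 replicate B, 120 without IM2 replicate A and 115 without IM2 replicate C, and the count below was 90 and 57 without IM1 replicates A and B, 5, 10 and 6 without IM2 replicates A, B and C, and 12, 9 and 15 without IM3 replicates A, B and C.

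**Figure D1:**
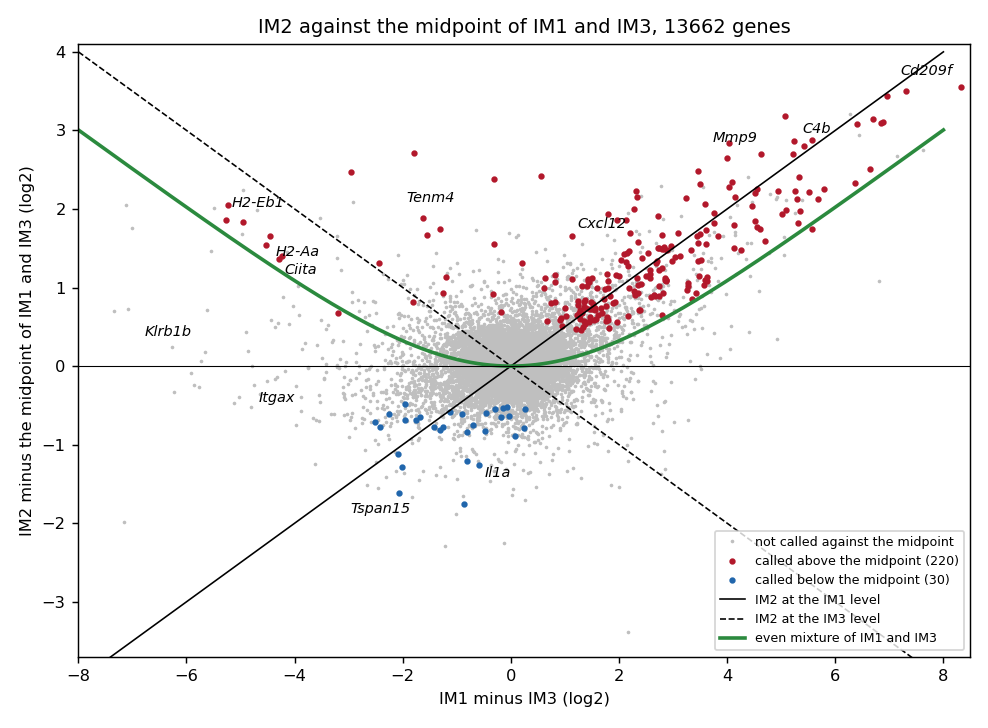
Departure of IM2 from the midpoint (y, log2) against the difference between IM1 and IM3 (x, log2) for the 13662 genes tested, each point a gene and each value a fitted difference from 9 libraries, with black lines at the IM1 and IM3 levels and a green curve at the even mixture. The 220 genes called above the midpoint lie mainly at the right, among genes higher in IM1, and the MHC class II genes form a separate group at the upper left.

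MHC class II presentation genes made up 6 of the 15 genes that were higher in IM3 and above the midpoint. Of 15 genes on the presentation list, 6 were above the midpoint and none below, beside 1.61% and 0.22% of all genes. The 6 were H2-Aa, H2-Ab1, H2-Eb1, H2-DMb1, Cd74 and Ciita. H2-Aa, H2-Ab1 and H2-Eb1 are gate genes, so their calls are no independent finding. The median departure of the list was 0.50, beside -0.001 for all genes, and 11 of the 15 were at least 2-fold higher in IM3 than in IM1, with a median position of 0.181. At the median, these genes thus stood nearer to IM3 than to IM1 in IM2 on the log2 scale. IM3 is the neighbour that shares the MHC class II gate with IM2. H2-Ob, which encodes the β chain of the H2-O exchange inhibitor, was among those that followed the midpoint.

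The promoters of 2 chains above the midpoint and of H2-Ob, which followed it, are shown because both patterns occur within one gene cluster on chromosome 17. The sequences are from RefSeq (GRCm38.p6), cover bases 140 to 3 before the annotated start, and are written 5′ to 3′ on the gene's strand. Capitals mark TGATTGG, the core of the Y box of class II promoters.
H2-Aa, chr17:34287826-34287963, minus strand: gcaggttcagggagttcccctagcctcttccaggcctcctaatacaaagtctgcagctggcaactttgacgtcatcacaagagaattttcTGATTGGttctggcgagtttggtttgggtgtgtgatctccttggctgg
H2-Eb1, chr17:34305727-34305864, plus strand: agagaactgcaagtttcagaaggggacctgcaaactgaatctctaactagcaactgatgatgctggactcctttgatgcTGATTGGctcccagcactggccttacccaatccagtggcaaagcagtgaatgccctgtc
H2-Ob, chr17:34238765-34238902, plus strand: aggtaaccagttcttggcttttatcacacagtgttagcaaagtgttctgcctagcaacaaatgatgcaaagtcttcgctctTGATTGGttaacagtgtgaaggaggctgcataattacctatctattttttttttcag
Each window held the motif once, with its first base 50, 61 and 59 bases before the start of H2-Aa, H2-Eb1 and H2-Ob. The same letters occurred on either strand in 1812 of 32851 windows of this length (5.52%). The window of H2-DMb1, above the midpoint, held them too, and neither of 2 windows of H2-DMa, which was not called, did.

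H2-Aa, the I-A α chain, read 529, 397 and 552 CPM in IM1, 7210, 7059 and 7492 in IM2 and 10720, 11310 and 10410 in IM3 (replicates A, B and C, the order used throughout). The 3 populations did not overlap, and every IM2 library was closer to IM3. H2-Aa departed from the midpoint by 1.65 ± 0.12 (SE, n = 3 libraries each, adjusted p = 3.25e-06 by edgeR), at position 0.129. H2-Eb1, the I-E β chain, read 277, 205 and 262 CPM in IM1, 4993, 4602 and 5183 in IM2 and 8079, 8006 and 7090 in IM3, a departure of 1.83 ± 0.12 (SE, n = 3 libraries each, adjusted p = 1.64e-06 by edgeR). H2-Ab1, the I-A β chain, stood at 736 ± 134 CPM (mean ± SD) in IM1, 10310 ± 692 in IM2 and 16920 ± 756 in IM3, a departure of 1.55 ± 0.12 (adjusted p = 1.03e-05). All 3 chains were thus far above IM1 in IM2 while remaining below IM3. On the linear scale the same genes did not depart detectably from an even mixture. The mixture departures were 0.36 ± 0.13 (adjusted p = 0.339) for H2-Aa, 0.30 ± 0.14 (adjusted p = 0.487) for H2-Eb1 and 0.22 ± 0.14 (adjusted p = 0.674) for H2-Ab1. H2-Eb1 overlaps Gm20513 on the other strand, and H2 genes share sequence, which unstranded counting of unique reads cannot fully separate.

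Cd74, the invariant chain that guides class II molecules to endosomes, had the highest level of the family, with 2074, 1833 and 1908 CPM in IM1, 23150, 21180 and 22060 in IM2 and 36720, 38500 and 33480 in IM3. Its departure was 1.40 ± 0.10 (adjusted p = 3.25e-06). Ciita, the master regulator of class II transcription, gave 12.2, 16.8 and 19.6 CPM in IM1, 149.6, 201 and 207 in IM2 and 284, 325 and 344 in IM3, a departure of 1.37 ± 0.15 (adjusted p = 0.000201) at position 0.181. H2-DMb1, a chain of the peptide exchange catalyst, departed less, by 0.68 ± 0.13 (adjusted p = 0.0124), and its call ended in 2 of 9 omissions of a library (adjusted p up to 0.107 without IM2 replicate C). These 6 genes lay between the neighbours and were resolved from both. Only 2 others of the 220 genes did so, the peptidase Enpep and the membrane protein Adam23. Adam23 (gene at chr1:63445891-63596276, mm10) read 0.730, 0.746 and 0.398 CPM in IM1, 13.8, 16.9 and 11.8 in IM2 and 30.9, 21.7 and 20.1 in IM3, a departure of 1.86 ± 0.23 (adjusted p = 0.000346). Not called were H2-DMa (0.50 ± 0.13, adjusted p = 0.0732), H2-DMb2 (0.32 ± 0.16, adjusted p = 0.540) and the low H2-Eb2 (2.25 ± 0.74, adjusted p = 0.0983). Of 15 costimulation genes tested none was called, and the median departure was 0.04. Cd86, a ligand of CD28, read 328, 336 and 392 CPM in IM1, 325, 292 and 338 in IM2 and 298, 320 and 298 in IM3, at -0.04 ± 0.11 from the midpoint (adjusted p = 0.931).

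**Figure D2:**
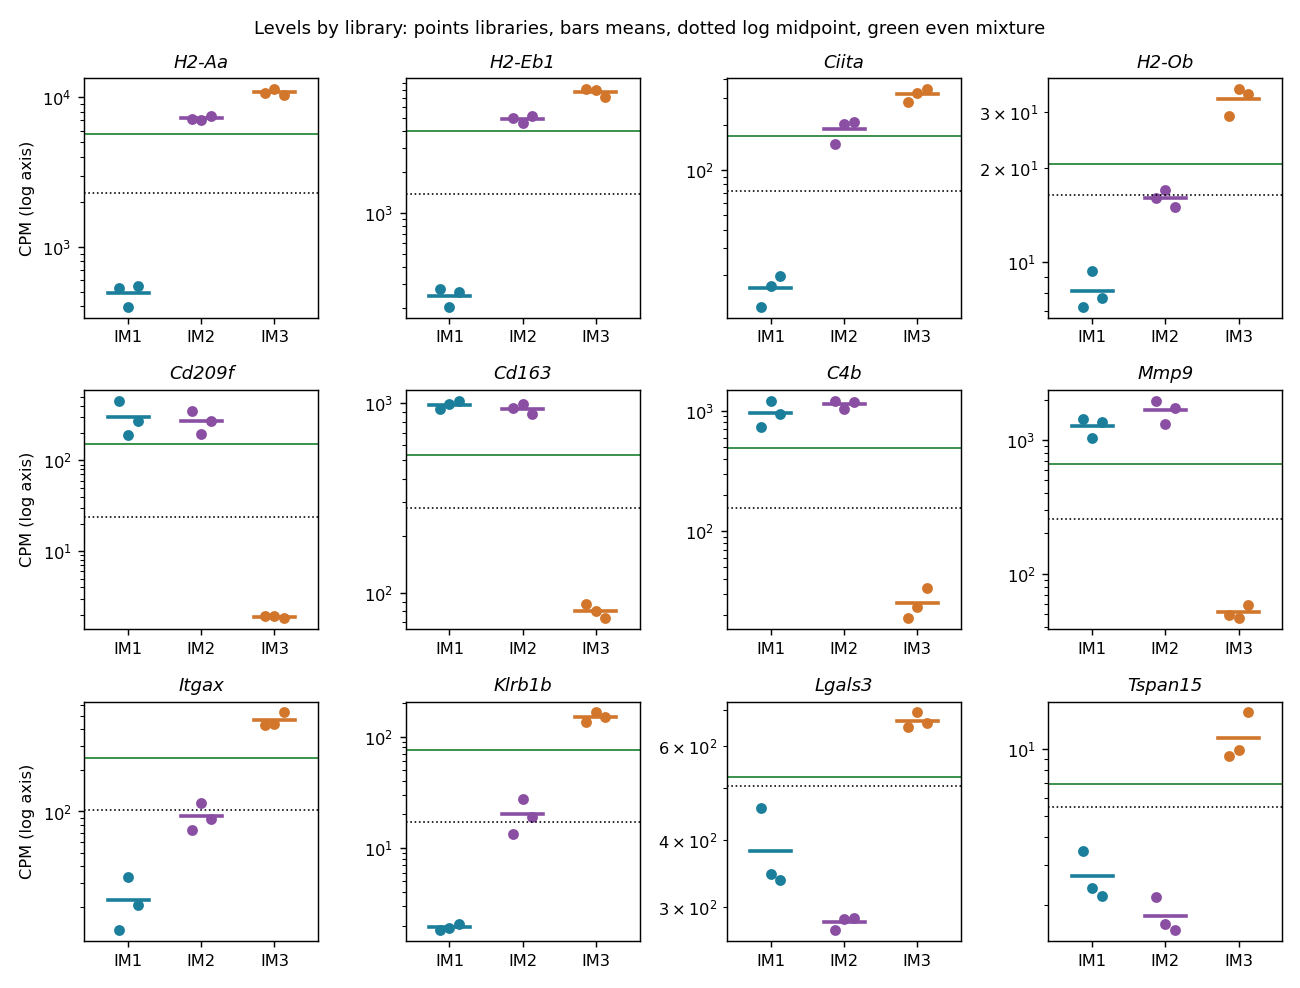
Level of selected genes in each of the 9 libraries (y, CPM after TMM scaling on a log axis), by population (x), each point a library and each short bar a mean, with a dotted line at the log midpoint and a green line at the even mixture of IM1 and IM3. On the log axis IM2 lies nearer IM3 than IM1 for H2-Aa and near IM1 for Cd209f.

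Genes of the CD206-high programme stood near their IM1 level in IM2. On a list of 28 such genes, 21 were above the midpoint and none below, beside 1.61% and 0.22% of all genes, with a median departure of 1.43. Of the 28, 25 were at least 2-fold higher in IM1 than in IM3, and their median position was 0.883. Of all 835 genes that were at least 2-fold higher in IM1, 187 were above the midpoint, and their median position over the 835 was 0.783. The list was assembled with earlier results of these data known and 27 of its members were higher in IM1, so its direction is no independent finding. In a bulk library, fewer cells expressing a gene and less RNA per cell cannot be told apart.

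Mrc1 itself, a gate gene, read 1834, 2334 and 2462 CPM in IM1, 2067, 2238 and 2441 in IM2 and 716, 786 and 799 in IM3. The IM1 and IM2 libraries overlapped and both stood above all IM3 libraries. Its departure was 0.79 ± 0.12 (adjusted p = 0.00292), and it was called above the even mixture too, by 0.59 ± 0.13 (adjusted p = 0.0493). Cd163, the receptor for haptoglobin-bound haemoglobin (gene at chr6:124304656-124330527), read 938, 986 and 1030 CPM in IM1, 945, 989 and 876 in IM2 and 87.5, 80.2 and 73.4 in IM3. It lay at 1.74 ± 0.11 from the midpoint (adjusted p = 1.64e-06) and 0.81 ± 0.12 (adjusted p = 0.00790) from the mixture. In the fit of all 9 libraries, IM2 thus exceeded what equal parts of IM1 and IM3 would give for Cd163. The third gene of the list above the mixture was Wwp1, a ubiquitin ligase, at 0.59 (adjusted p = 0.0486). Calls above the mixture depended on single libraries: without IM2 replicate A, 3 genes in all were called, beside 37 in the main fit. The same limit applies to the mixture calls of single genes given further on.

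The Cd209 cluster on chromosome 8, which encodes relatives of the lectin DC-SIGN, gave the highest departures of the list. Cd209f (gene at chr8:4102787-4105835) read 452, 189.8 and 268 CPM in IM1, 352, 196 and 272 in IM2 and 1.97, 1.95 and 1.82 in IM3. Within IM1 and IM2, replicate A was the highest library in each case, and the 2 populations overlapped, far above IM3. The departure was 3.50 ± 0.25 (adjusted p = 3.25e-06), at position 0.979, but the mixture departure of 0.84 ± 0.27 (adjusted p = 0.226) was not called. Cd209g stood at 3.44 ± 0.30 (adjusted p = 1.96e-05) and Cd209d at 3.14 ± 0.44 (adjusted p = 0.000447), with positions of 0.994 and 0.969. All of Cd209a to Cd209g were above the midpoint, from 1.95 for Cd209a to 3.50 for Cd209f. These paralogs share sequence, so reads unique to one gene may not represent each evenly.

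A further part of the list sat between the midpoint and IM1. Lyve1, the hyaluronan receptor, read 1060, 469 and 497 CPM in IM1, 489, 324 and 316 in IM2 and 7.12, 10.6 and 7.01 in IM3. Every IM2 library but A was below all IM1 libraries, IM2 replicate A lay between IM1 replicates B and C, and none was close to IM3. The departure was 2.34 ± 0.26 (adjusted p = 0.000155), whereas the even-mixture departure was 0.14 (adjusted p = 0.910). Folr2, a folate receptor, gave 2071, 826 and 956 CPM in IM1, 1121, 560.4 and 663 in IM2 and 20.3, 25.5 and 28.9 in IM3, at 2.13 ± 0.28 from the midpoint and 0.26 from the mixture (adjusted p = 0.000659 and 0.846). Ednrb, an endothelin receptor, read 292, 163 and 209 CPM in IM1, 136, 109 and 135 in IM2 and 1.42, 3.37 and 1.89 in IM3, at 2.51 ± 0.22 (adjusted p = 2.42e-05) and 0.18 (adjusted p = 0.854). These 3 were thus far above the log midpoint and not resolved from an even mixture. IM1 replicate A was the highest of the IM1 libraries in all 3 genes. F13a1, the A chain of coagulation factor XIII, was 2.23 ± 0.15 above the midpoint and Timd4, a phosphatidylserine receptor, 1.93 ± 0.20 above it (adjusted p = 1.64e-06 and 0.000103).

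Uncalled members of the list were Maf (0.54, adjusted p = 0.0807), Dab2 (0.42, 0.161), Pf4 (0.85, 0.147), Fxyd2 (0.60, 0.549), Mgl2 (0.44, 0.452), Slc40a1 (0.19, 0.794) and Igf1 (0.11, 0.818). Slc40a1, the iron exporter ferroportin, read 168, 146 and 208 CPM in IM1, 90.5, 85.4 and 144 in IM2 and 37.4, 53.7 and 59.4 in IM3. Its 95% interval around the midpoint ran from -0.23 to 0.61, so neither a departure nor a match to the midpoint was resolved.

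Of 19 complement genes tested, 6 were above the midpoint and none below, beside 1.61% and 0.22% of all genes, and the median departure was 0.40. The 9 that were at least 2-fold higher in IM1 had a median position of 0.957. C4b (gene at chr17:34728380-34743882), a complement component of the classical pathway, read 739, 1209 and 936 CPM in IM1, 1202, 1045 and 1180 in IM2 and 18.9, 23.3 and 33.9 in IM3. The IM1 and IM2 libraries overlapped, and its 2.87 ± 0.18 above the midpoint (adjusted p = 1.64e-06) came with 1.21 ± 0.21 (adjusted p = 0.0191) above the even mixture. C6, a part of the membrane attack complex, gave 33.3, 21.8 and 32.2 CPM in IM1, 39.9, 36.2 and 60.2 in IM2 and 0, 1.35 and 1.26 in IM3, a departure of 3.18 ± 0.38 (adjusted p = 0.000203) that was not called against the mixture (adjusted p = 0.0624). Cd55, which speeds the decay of the C3 convertase, stood at 2.26 ± 0.27 and properdin, Cfp, at 1.39 ± 0.18 (adjusted p = 0.000287 and 0.000491). C3, the central component, did not differ between IM1 and IM3 by the test but was above their midpoint: it read 89.0, 220.2 and 139 CPM in IM1, 220.5, 262 and 276 in IM2 and 63.7, 77.6 and 115 in IM3, a departure of 1.16 ± 0.24 (adjusted p = 0.0203). The C3 call ended in 5 of 9 omissions of a library (adjusted p up to 0.131 without IM2 replicate C), and the C4b call against the mixture in 4 of 9 omissions of a library (adjusted p up to 0.116 without IM2 replicate C). C4b has a near-identical paralog, C4a, with which reads may be confused.

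Vsig4, a receptor for C3 fragments on resident macrophages, read 109, 62.8 and 85.2 CPM in IM1, 17.2, 10.8 and 23.4 in IM2 and 0.475, 1.27 and 0.561 in IM3, so that the IM2 libraries lay well under every IM1 library. Vsig4 was not called against the midpoint (1.08 ± 0.30, adjusted p = 0.0925), and it was called below the even mixture, at a departure of -1.33 ± 0.28 (adjusted p = 0.0486) and position 0.192 on the linear CPM scale. The Vsig4 departure from the midpoint was called in 5 of 17 alternatives: without IM1 replicate A (adjusted p = 0.0325) or IM2 replicate B (0.0392), with every gene of at least 1 count (4.55e-06), with the replicate block (0.0492) and by DESeq2 (0.00995). Its mixture call ended in 8 of 9 omissions of a library (adjusted p up to 0.214 without IM2 replicate A). Only 1 other gene higher in IM1 lay below the mixture, Cd109, a membrane inhibitor of TGF-β signalling, with 3.38, 8.47 and 5.97 CPM in IM1, 0.849, 0.930 and 1.47 in IM2 and 1.97, 1.35 and 1.61 in IM3.

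Among secreted factors, 6 of 25 chemokines tested were above the midpoint and none below, beside 1.61% and 0.22% of all genes, with a median departure of 0.32. The count was 11 above and 1 below without IM1 replicate A, 4 above without IM2 replicate A, 8 above and 4 below with the replicate block, and 10 above and 3 below with every gene of at least 1 count. Ccl8, a ligand of mouse CCR8, read 338, 148 and 144 CPM in IM1, 320.4, 144 and 208 in IM2 and 4.07, 3.60 and 6.94 in IM3. IM2 and IM1 overlapped and both exceeded IM3, giving a departure of 2.81 ± 0.31 (adjusted p = 0.000174). Ccl24, an eosinophil attractant, stood at 2.22 ± 0.27 (adjusted p = 0.000344). Ccl17, a ligand of CCR4, was higher in IM3 than in IM1, with 3.65, 1.08 and 1.39 CPM in IM1, 12.9, 10.4 and 9.23 in IM2 and 6.78, 6.97 and 3.79 in IM3. IM2 was the highest population, 1.67 ± 0.32 above the midpoint (adjusted p = 0.0136), although it was not resolved from IM3 (adjusted p = 0.173). Cxcl13, a B cell attractant, was above both the midpoint (1.12, adjusted p = 0.00430) and the mixture (1.08, adjusted p = 0.0178), with 183, 101 and 123 CPM in IM1, 297, 199.5 and 212 in IM2 and 97.6, 84.3 and 80.04 in IM3.

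Of 17 cytokines, Il10 was above the midpoint and Il1a below it, beside 1.61% and 0.22% of all genes. Il10, an anti-inflammatory cytokine, read 25.5, 22.7 and 14.2 CPM in IM1, 29.7, 19.2 and 19.03 in IM2 and 3.53, 4.72 and 1.05 in IM3, a departure of 1.498 ± 0.315 (adjusted p = 0.0222). Retnla, a protein induced by IL-4, read 779, 299 and 335 CPM in IM1, 1161, 568 and 644 in IM2 and 45.6, 47.6 and 34.9 in IM3. Its IM1 and IM2 ranges overlapped and IM2 was not resolved from IM1 (adjusted p = 0.337), but it was called above the midpoint (2.48 ± 0.29, adjusted p = 0.000278) and the mixture (1.62, adjusted p = 0.0354), the latter a call that ended in 8 of 9 omissions of a library (adjusted p up to 0.241 without IM2 replicate A). Mmp9 (gene at chr2:164940780-164955850), a gelatinase, read 1425, 1024 and 1355 CPM in IM1, 1955, 1315 and 1725 in IM2 and 49.5, 46.4 and 58.4 in IM3. Its departures were 2.71 ± 0.15 from the midpoint and 1.34 ± 0.17 (adjusted p = 0.00456) from the mixture, the former with an adjusted p of 1.61e-06. Single-library omissions ended the calls of Il10 (in 4 of 9 omissions, adjusted p up to 0.165 without IM2 replicate A) and Ccl17 (in 3 of 9 omissions, adjusted p up to 0.0918 without IM2 replicate A).

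Receptors and iron-handling genes added to the upward group. The list counts here stand beside 1.61% of all genes above the midpoint and 0.22% below. A single called member says little about its list. Of 30 C-type lectins 11 were above the midpoint and 1, Clec1b, below, a call that ended in 6 of 9 omissions of a library (adjusted p up to 0.169 without IM2 replicate B). Of 18 Siglec and inhibitory receptor genes, Siglec1 (1.27 ± 0.14, adjusted p = 0.000203) and Siglech (1.55 ± 0.18, adjusted p = 0.000287) were above. Siglec1, the sialoadhesin of tissue macrophages, read 279, 238 and 183 CPM in IM1, 294, 273 and 231 in IM2 and 57.8, 45.7 and 53.3 in IM3 and was above the even mixture as well (0.90, adjusted p = 0.0178). Of 17 iron and haem genes 3 were above: Cd163, Cp and Tfrc. These 3 were higher in IM1 than in IM3, and IM2 was not resolved from IM1. Cp, ceruloplasmin, stood at 1.31 ± 0.15 and Tfrc, the transferrin receptor, at 1.38 ± 0.20 (adjusted p = 0.000201 and 0.00176). Tlr5, the flagellin receptor, was 1 of 23 pattern recognition genes called, at 1.17 ± 0.16 (adjusted p = 0.000817). Of 21 growth factor genes, 5 were above and none below: Gas6, Tgfa, Bmp2, Nrp1 and Nrp2. Gas6, a bridge between apoptotic cells and the receptors AXL and MerTK, read 1731, 1513 and 1846 CPM in IM1, 1393, 1067 and 1367 in IM2 and 149.7, 139 and 158 in IM3, a departure of 1.34 ± 0.12 (adjusted p = 4.34e-05). The Nrp1 call ended in 5 of 9 omissions of a library (adjusted p up to 0.144 without IM2 replicate C). Omissions of single libraries ended the calls of Bmp2 (in 2 of 9 omissions, adjusted p up to 0.149 without IM2 replicate C), Tgfa (in 6 of 9 omissions, adjusted p up to 0.203 without IM2 replicate C) and Nrp2 (in 6 of 9 omissions, adjusted p up to 0.194 without IM2 replicate B).

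Some of these genes also serve as markers of other cells. The marker counts here stand beside 1.61% of all genes above the midpoint. Of 9 tested conventional type 2 dendritic cell markers, Cd209a, Clec10a and Zbtb46 were above the midpoint, and the 10 listed summed, before TMM scaling, to 2461 to 2540 CPM (IM1), 2833 to 3208 CPM (IM2) and 2351 to 2795 CPM (IM3), with Ffar2 at 0 in every library. These sums were made up mostly of Sirpa and Mgl2. Another 3 markers were at least 2-fold higher in IM3 than in IM1, with a median position of 0.566. Flt3, for example, read 3.64, 3.97 and 0.961 CPM in IM1, 5.97, 9.90 and 3.45 in IM2 and 24.8, 20.7 and 7.99 in IM3 before scaling. The part of conventional type 2 dendritic cells in these results was not tested. Of 8 migratory dendritic cell markers, Ccl17 and Fscn1 were above the midpoint, and their sums ran from 127.9 to 257.2 CPM for IM1, from 280.2 to 287.2 CPM for IM2 and from 367.9 to 425.5 CPM for IM3. Omissions of single libraries ended the calls of Zbtb46 (in 4 of 9 omissions, adjusted p up to 0.131 without IM2 replicate C) and Fscn1 (in 2 of 9 omissions, adjusted p up to 0.0658 without IM2 replicate C). Ccr7, a defining marker of migratory dendritic cells, was at most 1.28 CPM in all 9 libraries. Siglech was the only 1 of 5 plasmacytoid markers above the midpoint, and the plasmacytoid marker sums of 648.7 to 828.5, 556.4 to 668.1 and 222.7 to 235.9 CPM in IM1, IM2 and IM3 were made up mostly of Siglech and Tcf4. Their part was not tested.

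IM2 exceeded both neighbours at 6 genes. The rule for named genes gave 4 of them, and Cd226 and BC064078, under its 5 CPM minimum, were added after their values were seen. Cxcl12, the ligand of CXCR4 (gene at chr6:117168535-117181367), read 25.1, 21.9 and 25.9 CPM in IM1, 56.6, 39.98 and 59.1 in IM2 and 10.2, 7.95 and 15.2 in IM3. The populations did not overlap, and IM2 was 1.10 ± 0.22 (adjusted p = 0.0331) from IM1 and 2.22 ± 0.23 (adjusted p = 3.49e-05) from IM3 on the log2 scale. C1qtnf1, a secreted relative of C1q (gene at chr11:118428203-118449963), read 29.9, 19.9 and 24.2 CPM in IM1, 46.5, 48.7 and 57.2 in IM2 and 4.54, 8.70 and 8.14 in IM3, at 1.05 ± 0.22 (adjusted p = 0.0430) from IM1 and 2.84 ± 0.23 (adjusted p = 6.58e-06) from IM3. Both genes were above the even mixture, by 1.55 and 1.68 (adjusted p = 0.00436 and 0.00426). Tenm4, a teneurin cell adhesion protein, read 1.28, 1.15 and 0.996 CPM in IM1, 8.26, 7.80 and 6.22 in IM2 and 4.20, 2.47 and 3.86 in IM3, a departure of 1.89 ± 0.25 (adjusted p = 0.000659). Clec2i, a C-type lectin-like ligand of NKR-P1 receptors, read 12.6, 11.9 and 15.3 CPM in IM1, 30.7, 23.5 and 30.4 in IM2 and 17.2, 19.4 and 13.5 in IM3, a departure of 0.92 ± 0.16 (adjusted p = 0.00795), with no difference between IM1 and IM3 detected and no overlap of IM2 with either. The Clec2i call ended without IM2 replicate A or C (adjusted p up to 0.0747). C1qtnf1, Tenm4 and Clec2i overlap genes on the other strand, with which unstranded reads cannot be told apart. The count of 6 was 1 without IM2 replicate A or C, 2 without IM3 replicate B or C, 3 without IM1 replicate C, IM2 replicate B or IM3 replicate A, 12 without IM1 replicate A and 28 without IM1 replicate B. One of the 10 fibroblast markers, Dcn, was also above the midpoint (1.44 ± 0.29, adjusted p = 0.0165), beside 1.61% of all genes. The Dcn call ended without IM2 replicate A or C (adjusted p up to 0.121). The fibroblast marker sum ranged over 231.7 to 264.1 CPM (IM1), 223.0 to 285.7 CPM (IM2) and 219.4 to 359.9 CPM (IM3), no marker was at 0 throughout, and the part of fibroblasts in the Cxcl12 level was not tested.

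**Figure D3:**
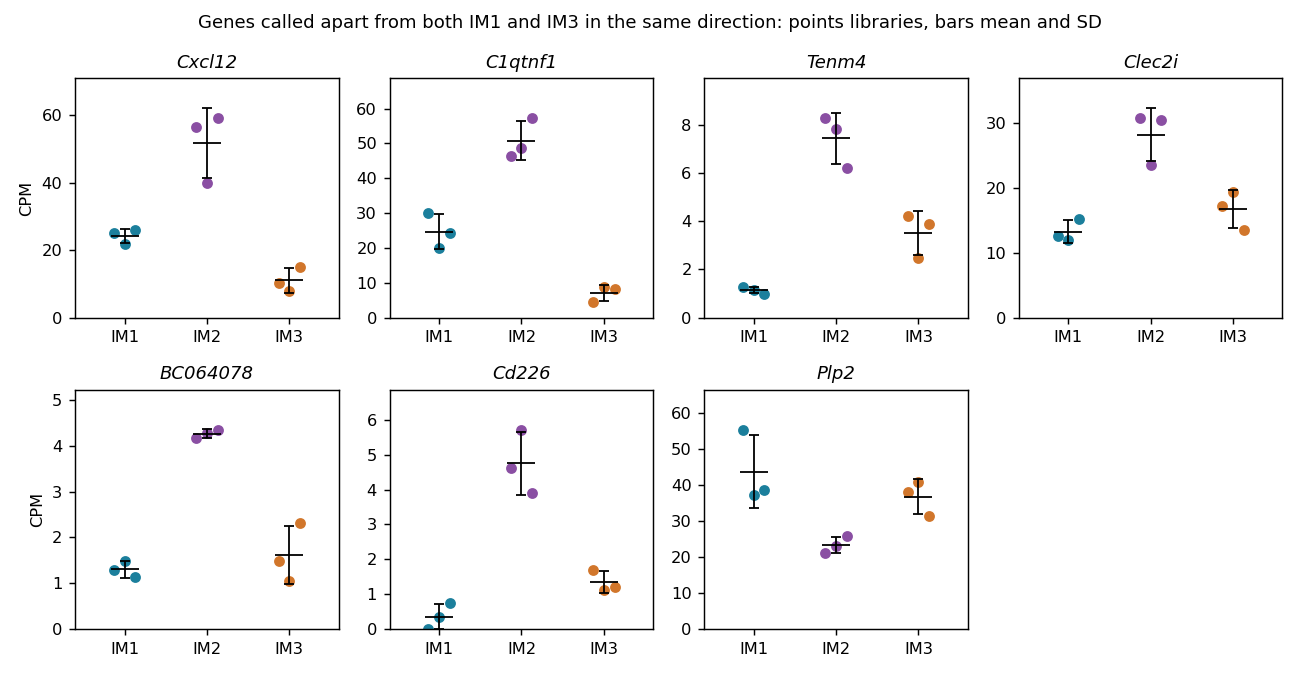
Levels of the genes called outside both neighbours (y, CPM after TMM scaling, linear axis from 0) in the 9 libraries, by population (x), each point a library, with bars for the mean and SD of 3 libraries. For Cxcl12 all 3 IM2 libraries lie above every IM1 and IM3 library, and for Plp2 all 3 lie below.

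The genes below the midpoint were mostly IM3-high genes whose IM2 level was not resolved from IM1. Lgals3, galectin-3 (gene at chr14:47367751-47386160), read 460.1, 346 and 338 CPM in IM1, 272, 285 and 287 in IM2 and 652, 693 and 662 in IM3. IM2 was the lowest population without overlap, at -0.84 ± 0.12 (adjusted p = 0.00288), although it was not resolved from IM1 (adjusted p = 0.210). Cd9, a tetraspanin (gene at chr6:125460266-125494791), read 358, 413 and 412 CPM in IM1, 317, 379 and 368 in IM2 and 894, 1040 and 1005 in IM3, at -0.81 ± 0.12 (adjusted p = 0.00250). Dpep2, a membrane dipeptidase that acts on leukotriene D4, read 66.2, 71.5 and 69.4 CPM in IM1, 59.2, 69.2 and 70.5 in IM2 and 192, 190.4 and 175 in IM3, at -0.77 ± 0.11 (adjusted p = 0.00248). These 3 were called against the midpoint under every alternative tried, and were called below the even mixture too, with departures of -0.90, -0.95 and -0.94 (adjusted p = 0.00583, 0.00436 and 0.00426).

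Other members of the downward set were lower in level or more variable. Spp1, osteopontin, read 39.6, 67.8 and 51.8 CPM in IM1, 32.3, 30.1 and 21.2 in IM2 and 51.7, 49.8 and 49.9 in IM3, so IM2 was below both neighbours in every library while IM1 and IM3 overlapped. Its departure was -0.89 ± 0.18 (adjusted p = 0.0237). Il1a, the cytokine IL-1α, read 4.93, 6.24 and 4.18 CPM in IM1, 2.78, 3.08 and 1.99 in IM2 and 8.41, 7.72 and 6.94 in IM3, at -1.26 ± 0.24 (adjusted p = 0.0154). Plp2, a proteolipid membrane protein (gene at chrX:7667941-7671390), was the single gene called below both neighbours: it read 55.4, 37.1 and 38.7 CPM in IM1, 21.1, 22.96 and 25.7 in IM2 and 38.1, 40.8 and 31.5 in IM3, at -0.91 ± 0.18 (adjusted p = 0.0331) from IM1 and -0.66 ± 0.18 (adjusted p = 0.0374) from IM3. Plp2 overlaps Prickle3 on the other strand. Tspan15, a tetraspanin that binds ADAM10, had the largest departure of the named genes below, -1.61 ± 0.27 (adjusted p = 0.00738), with 3.47, 2.37 and 2.19 CPM in IM1, 2.16, 1.65 and 1.54 in IM2 and 9.22, 9.82 and 14.5 in IM3. Gbp8, an interferon-inducible GTPase, stood at -1.28 ± 0.27 and Tppp3, a tubulin polymerisation protein, at -0.83 ± 0.15 (adjusted p = 0.0280 and 0.0158). In each of these 3 the IM2 libraries lay below every IM3 library. Fgf13 (-1.11), Speg (-1.21) and Dppa3 (-0.78) were also below, with adjusted p from 0.0367 to 0.0464. Tnfsf13b was called below too, a call that ended in 7 of 9 omissions of a library (adjusted p up to 0.301 without IM2 replicate A). Omissions of single libraries ended the calls of Spp1 (in 6 of 9 omissions, adjusted p up to 0.158 without IM2 replicate C), Il1a (in 2 of 9 omissions, adjusted p up to 0.110 without IM2 replicate C), Plp2 (in 5 of 9 omissions, adjusted p up to 0.195 without IM2 replicate A), Tspan15 (in 1 of 9 omissions, adjusted p up to 0.0658 without IM2 replicate C), Gbp8 (in 6 of 9 omissions, adjusted p up to 0.169 without IM2 replicate C), Tppp3 (in 4 of 9 omissions, adjusted p up to 0.125 without IM2 replicate C), Fgf13 (in 7 of 9 omissions, adjusted p up to 0.263 without IM2 replicate A), Speg (in 7 of 9 omissions, adjusted p up to 0.211 without IM2 replicate A) and Dppa3 (in 6 of 9 omissions, adjusted p up to 0.197 without IM2 replicate C).

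A different group of IM3-high genes was not called against the log midpoint and lay below the even mixture. The lack of a midpoint call does not show a match to the midpoint. Itgax, which encodes CD11c, read 13.6, 33.1 and 20.8 CPM in IM1, 73.3, 115 and 87.5 in IM2 and 428, 438 and 529 in IM3. The 3 populations were stepwise with no overlap. Itgax was -0.16 ± 0.22 from the midpoint (adjusted p = 0.859, 95% interval -0.63 to 0.32) and -1.41 ± 0.25 (adjusted p = 0.0195) from the mixture. The labels describe IM1 and IM2 as CD11c low and IM3 as CD11c positive, so the Itgax level is no independent finding. On the linear scale its position was 0.843, against 0.345 for H2-Aa, 0.411 for Cd74, 0.552 for Lyve1 and 0.947 for Cd163. The linear positions of these genes thus differed widely, a description without a test.

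Klrb1b, an NKR-P1 lectin-like receptor, read 1.83, 1.90 and 2.06 CPM in IM1, 13.4, 27.8 and 19.1 in IM2 and 134, 165 and 151 in IM3, at 0.24 ± 0.20 from the midpoint (adjusted p = 0.751) and -1.92 ± 0.21 (adjusted p = 0.00339) from the mixture. Adgrg5, an adhesion G protein-coupled receptor, read 0.0913, 0.610 and 0.863 CPM in IM1, 3.94, 4.36 and 3.33 in IM2 and 44.1, 34.4 and 47.9 in IM3, with a mixture departure of -2.46 ± 0.27 (adjusted p = 0.00339). In both genes IM2 was resolved from IM1 and from IM3. Il1r2, the decoy IL-1 receptor, was -2.17 from the mixture and H2-M2, a class I-like H2 gene, -1.68 (adjusted p = 0.0129 and 0.0129). Among 23 matrix remodelling genes 4 were below the mixture, beside 0.622% of all genes: Mmp12, Mmp13, Adam8 and Spp1. Spp1 is no member of the group above, since it was also called below the midpoint and its IM1 and IM3 libraries overlapped. Of the 4, the mixture call of Mmp13 ended in 8 of 9 omissions of a library (adjusted p up to 0.140 without IM2 replicate A), that of Adam8 in 7 of 9 and that of Spp1 in 7 of 9. Mmp12, macrophage elastase, read 178, 201 and 256 CPM in IM1, 346, 619.5 and 677 in IM2 and 2323, 3353 and 3685 in IM3, at -1.60 (adjusted p = 0.00666). Mmp13, collagenase 3, gave 2.46, 5.36 and 10.2 CPM in IM1, 15.7, 29.8 and 34.9 in IM2 and 134, 215 and 254 in IM3, at -1.95 (adjusted p = 0.0259). Ocstamp, a fusion protein of osteoclasts, read 0, 0 and 0.133 CPM in IM1, 0.0772, 0.286 and 0.128 in IM2 and 5.76, 9.30 and 9.47 in IM3, and its IM1 and IM2 levels were close to the 3-count limit. Its departure from the midpoint, never called, ran from -2.60 to -0.65 over the omissions of a library, so it was poorly measured.

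On a list of 21 genes of CCR2+ monocyte-derived cells, 2 were above the midpoint (Cd209a and Ccl17), 2 below (Lgals3 and Lsp1), and 5 were below the even mixture (Itgax, Cd72, Il1b, Lsp1 and Lgals3). Over all genes the shares were 1.61% above and 0.22% below the midpoint and 0.622% below the mixture. The median departure of the list was -0.16. Ccr2, the receptor for CCL2, read 46.6, 87.4 and 84.7 CPM in IM1, 338, 595 and 563 in IM2 and 1076, 1180 and 1308 in IM3. The populations did not overlap, at position 0.311, and the departure of 0.76 ± 0.21 was not called (adjusted p = 0.0983). Lsp1, a leukocyte actin-binding protein, read 207, 194 and 203 CPM in IM1, 215, 256 and 264 in IM2 and 728, 783 and 825 in IM3, at -0.69 ± 0.11 (adjusted p = 0.00671), a call that ended without IM2 replicate A (adjusted p = 0.0654). Over the omissions and other alternatives, 1 to 4 members were called above the midpoint and 1 to 5 below.

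Genes shown to follow the midpoint were those with at least a 2-fold, called difference between IM1 and IM3 and a 95% interval of the departure within 0.5 log2 on either side. There were 125 (0.915% of genes tested), 77 higher in IM3 and 48 higher in IM1. Slamf7, a self-ligand receptor of leukocytes (gene at chr1:171632403-171653035), read 76.6, 90.6 and 113 CPM in IM1, 179, 201 and 218 in IM2 and 374, 441 and 389.9 in IM3, and its departure of 0.04 ± 0.13 had an interval of -0.25 to 0.33. H2-Ob read 7.21, 9.36 and 7.70 CPM in IM1, 16.1, 17.02 and 14.9 in IM2 and 29.2, 35.5 and 34.2 in IM3, with -0.03 ± 0.15 and an interval of -0.34 to 0.28. In both genes the 3 populations were evenly stepped without overlap. Mycl, a MYC family factor, read 2.28, 1.76 and 2.65 CPM in IM1, 6.10, 10.01 and 6.22 in IM2 and 24.9, 23.7 and 23.4 in IM3, at 0.02 ± 0.21 and an interval of -0.42 to 0.47. Sorl1, a sorting receptor, stood at -0.01 ± 0.20, Rin3, a Rab5 activator, at -0.05 ± 0.16 and Tnip3, a partner of A20, at 0.09 ± 0.17. Rhoj was the only 1 of the 10 named followers that was higher in IM1, with 21.4, 14.8 and 20.4 CPM in IM1, 9.96, 8.94 and 9.04 in IM2 and 4.27, 3.67 and 4.49 in IM3 and a departure of 0.07 ± 0.18. Rap1gap2, Slc13a3 and Zfyve28 made up the 10, at 0.04, -0.01 and 0.04. The definition admits only precisely measured genes: with 0.3 log2 in place of 0.5, 3 genes met it, and without IM2 replicate B 33 did.

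Followers were spread over functional groups. Of 27 lysosome genes 3 followed, Ctsd, Ctsl and Psap, and none was called against the midpoint. Ctsd, cathepsin D, read 3465, 2817 and 3334 CPM in IM1, 1782, 1632 and 1911 in IM2 and 895, 970.4 and 902 in IM3, at 0.05 ± 0.11. Axl, the TAM receptor tyrosine kinase, read 264, 517 and 473 CPM in IM1, 644, 833 and 818 in IM2 and 1476, 1445 and 1543 in IM3, at -0.04 ± 0.18. Csf2ra, the GM-CSF receptor α chain, read 381, 404 and 373 CPM in IM1, 594, 533 and 529 in IM2 and 987, 969 and 888 in IM3, at -0.13 ± 0.11. Icosl, the ICOS ligand, and Cd200r1, the CD200 receptor, were the followers among 15 costimulation genes. Of 30 cell cycle genes none was called, 17 were higher in IM1, and the 14 that were at least 2-fold higher had a median position of 0.491, but only Cenpa was measured closely enough to count as following. The median departure of the cell cycle list was -0.09. None was called above or below the midpoint among 39 transcription factors, 26 cytokine receptors, 11 chemokine receptors, 26 immediate early and stress genes, 27 oxidative phosphorylation genes, 31 ribosomal protein genes, 22 cholesterol synthesis genes, 19 fatty acid oxidation genes, 27 TGF-β signalling genes and 21 MHC class I presentation genes. Without a call these lists are not shown to match the midpoint. The transcriptional regulators Ciita and Zbtb46, which were called above the midpoint, were on none of them.

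Over all 1538 genes with at least a 2-fold, called difference between IM1 and IM3, IM2 stood nearer to IM1. The median position was 0.681 (quartiles 0.499 and 0.858). Genes higher in IM1 had a median of 0.783 over 835 genes, and 709 of them were nearer IM1. Genes higher in IM3 had a median of 0.575 over 703 genes, 442 nearer IM1. The lean was therefore stronger for the genes that IM1 had more of, on the log scale. On the linear CPM scale the order was the other way round, with medians of 0.636 for genes higher in IM1 and 0.742 for genes higher in IM3. For a gene between its neighbours, the linear scale always moves IM2 toward the lower neighbour. The direction of this shift is thus arithmetic and no finding about IM2. By IM2 library the medians were 0.762 for A, 0.593 for B and 0.684 for C, all above 0.5. For genes higher in IM3 alone they were 0.647, 0.485 and 0.591, so that IM2 replicate B lay slightly on the IM3 side. Most of the 1538 genes stayed unresolved: 600 higher in IM1 and 597 higher in IM3 were neither called nor shown to follow. Among genes higher in IM3, 15 were called on the IM3 side of the midpoint and 14 on the IM1 side. Among genes higher in IM1, 187 were called toward IM1 and none toward IM3. These positions are a description, since the genes were chosen by a contrast of the same libraries.

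**Figure D4:**
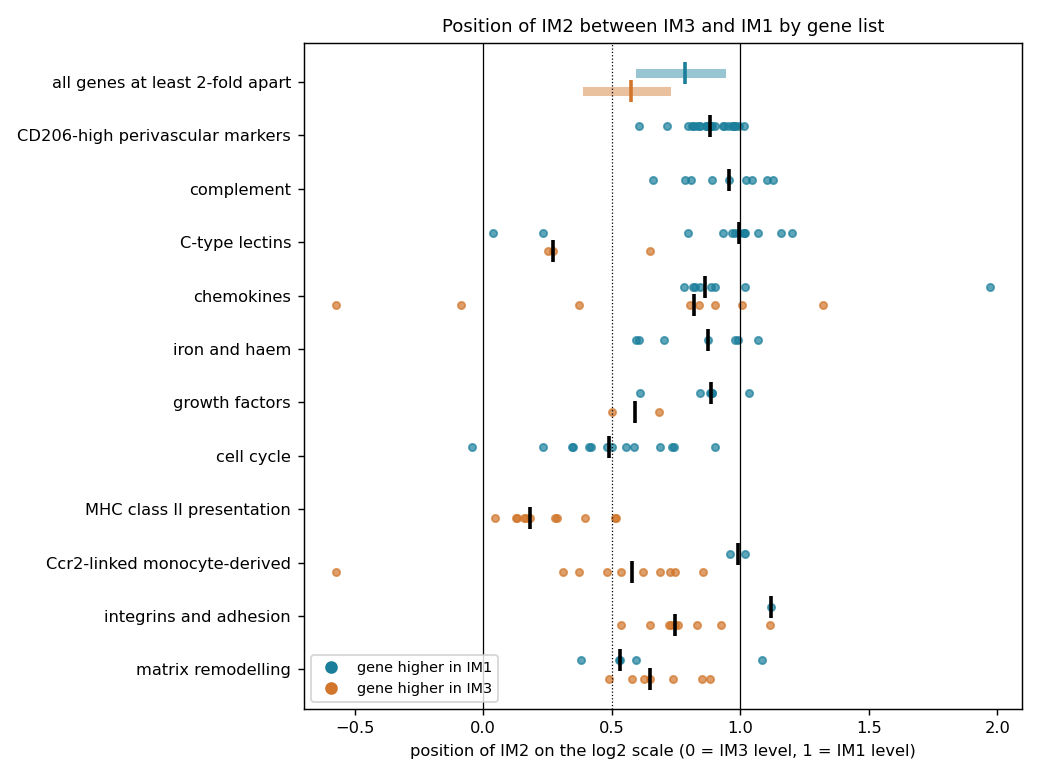
Position of IM2 on the log2 scale from IM3 (0) to IM1 (1) (x) for the members of each gene list (y) that differ at least 2-fold between IM1 and IM3, each point a gene, coloured by the population in which it is higher, with a tick at the median and, for all such genes, a bar over the quartiles. MHC class II genes have a median of 0.181, beside 0.575 for all genes higher in IM3, and CD206-high genes one of 0.883, beside 0.783 for all genes higher in IM1.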

How the data were processed

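RNA-seq of sorted lung macrophages was analysed in 9 libraries, 3 each of IM1, IM2 and IM3. The authors deposited raw read counts per gene, per the file headers: 43346 Ensembl 78 gene models on mm10, counted without strand by featureCounts. Per the submitters' processing notes, the tools were STAR 2.5.1b, DESeq2 1.8.1, R 3.2.0 and Subread 1.5.0-p1. Runs of a library were summed and equalled the deposited library counts in every cell. Assigned reads were 71.1% to 76.3% of each library. A log2 departure of a gene rests on counts, so low genes carry wider errors, and 3 counts were taken as the floor.

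Counts were fitted in edgeR 4.0.16 (R 4.3.3, limma 3.58.1) with TMM scaling, filterByExpr at a minimum count of 10 (13662 genes kept) and the quasi-likelihood test with population as the only term. The midpoint contrast was IM2 minus the mean of IM1 and IM3 on the log2 scale. The even-mixture departure took a delta-method standard error from the same fit. Benjamini-Hochberg adjustment covered all genes tested. Symbols came from GENCODE M21 for 42462 genes (98.0%). A planned exact two-sided permutation test of marker sums over 84 splits could not pass for any single list and is not used. The scripts were tested on simulated data.

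Named genes were the 12 largest called departures in each direction with a mean of at least 5 CPM in a population, those outside both neighbours (up to 12 a side), the 10 followers and the 10 genes called against only 1 of midpoint and mixture with the largest IM1 to IM3 difference, gate genes, up to 4 called members per list, and uncalled list members given with their values. Other genes named (Adam23, Enpep, Cd109, Cd226, BC064078, Clec1b, Asgr2, Aldh1a2, Map4k1 and the remaining called list members) were chosen after their values were seen. The population, members and gene lists were chosen with earlier results of these data known. Alternatives covered scaling (DESeq2 1.42.0 size factors, upper quartile), the count filter, all 12 libraries, a replicate block, voom, DESeq2, the interval width and each library left out. Alveolar macrophage libraries entered only the 12-library alternative.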

Additional observations from a re-analysis of the deposited data

How the results depend on the processing

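None of the 250 midpoint calls or 122 mixture calls changed sign in any alternative that tested the gene (4241 and 1828 tests of a gene in all). RLE scaling (220 above and 30 below the midpoint), upper-quartile scaling (215 and 36) and a minimum count of 30 (231 and 33) left the counts within 1.5 times, except that 2 genes lay below both neighbours with upper-quartile scaling. Testing every gene with at least 1 count gave 432 above and 108 below the midpoint, 160 above and 237 below the mixture, 21 and 11 outside both neighbours and 207 followers. With all 12 libraries fitted, 57 genes were below the midpoint, 69 above and 147 below the mixture and 5 below both. Voom called 435 and 127 against the midpoint and DESeq2 346 and 108. An interval of 0.3 log2 left 3 followers. The causes were not tested.

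With a replicate block, 318 genes lay above and 87 below the midpoint, 93 above and 182 below the mixture, 10 above and 7 below both neighbours, and 207 followed. No label ties the letters to a shared animal or day. The block was therefore kept as an alternative. Correlations of same-letter deviations exceeded 0.1 in 7 of 9 pairs, from -0.128 to 0.309 over all 9. As a hint from the data, all 6 same-letter pairs with IM2 were positive (0.154 to 0.309), and 8 of 9 libraries correlated best with their own letter. All 12 different-letter pairs with IM2 were negative. Deviations were taken from each population's own mean, so a positive same-letter pair pushes the different-letter pairs negative. The negative pairs are therefore no separate evidence.

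Leaving out each library gave 115 to 364 above and 5 to 90 below the midpoint, 3 to 126 above and 10 to 218 below the mixture, 1 to 28 above and 0 to 10 below both neighbours, 33 to 242 followers and a median position of 0.561 to 0.73. Of the 250 midpoint calls, 98 were kept in every omission and 152 were not, and 16 were lost under another alternative. Of the 122 mixture calls, 12 were kept in every omission. The depth and the 3 libraries per population limit calls on genes near the count floor.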

Other observations

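The 11 genes above the midpoint that were not called different between IM1 and IM3 included several immune genes, chosen here after their values were seen. Gbp2, an interferon-induced GTPase, averaged 16.4 ± 2.36 CPM in IM1, 28.3 ± 5.74 in IM2 and 18.7 ± 0.32 in IM3 (SD, n = 3), a departure of 0.69 ± 0.16 (adjusted p = 0.0366 by edgeR). Every IM2 library was above all IM1 and IM3 libraries, but the call ended in 5 of 9 omissions of a library, and none of the other 29 interferon response genes tested was called. Sdc1, the proteoglycan CD138, read 0.548, 0.814 and 0.664 CPM in IM1, 4.79, 1.29 and 4.87 in IM2 and 1.90, 1.12 and 2.10 in IM3, at 1.75 ± 0.42 (adjusted p = 0.0486), a call that ended in 6 of 9 omissions. IM2 replicate B lay within the IM3 range of Sdc1. Asgr2, a subunit of the asialoglycoprotein receptor, read 5.75, 5.15 and 3.85 CPM in IM1, 15.5, 7.51 and 10.96 in IM2 and 4.27, 5.10 and 3.44 in IM3, at 1.31 ± 0.25 (adjusted p = 0.0126), a call that ended in 2 of 9 omissions. Cd226, an activating receptor for nectin-family ligands, read 0, 0.339 and 0.730 CPM in IM1, 4.63, 5.72 and 3.91 in IM2 and 1.70, 1.12 and 1.19 in IM3, at 2.71 ± 0.46 (adjusted p = 0.00419).

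Besides the MHC class II genes, the genes higher in IM3 and above the midpoint included Aldh1a2, which makes retinoic acid. Aldh1a2 read 2.56, 1.97 and 3.38 CPM in IM1, 7.10, 9.15 and 10.1 in IM2 and 5.70, 6.82 and 5.75 in IM3, at 1.13 ± 0.22 (adjusted p = 0.0149). Its IM2 mean was the highest of the 3, though it was not resolved from IM3 (adjusted p = 0.256). Map4k1, a kinase of lymphocyte and myeloid signalling, read 2.65, 4.41 and 3.58 CPM in IM1, 10.96, 12.7 and 11.8 in IM2 and 14.7, 12.7 and 10.4 in IM3, at 0.82 ± 0.19 (adjusted p = 0.0469). The calls of Aldh1a2 and Map4k1 ended in 2 and 7 of 9 omissions. Among IM1-high genes, the amino acid transporter gene Slc7a13 read 15.5, 11.8 and 16.6 CPM in IM1, 15.4, 8.51 and 16.7 in IM2 and 0.0678, 0.0750 and 0.351 in IM3, at 3.08 ± 0.38 (adjusted p = 0.000125), with IM1 and IM2 overlapping and 7 counts in all in the 3 IM3 libraries.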
